A study of Homo sapiens with 6 samples.

Results

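Respiratory complex I is described here through 55 protein-coding genes, those of the 57820 gene identifiers of the count table whose symbol starts with NDUF or MT-ND. They comprise 7 core subunits encoded in the nucleus, 30 supernumerary nuclear subunits, 8 assembly factors of the NDUFAF series, 7 subunits encoded by mitochondrial DNA and 3 other genes that carry the name (NDUFA4, NDUFA4L2 and the readthrough gene NDUFC2-KCTD14). NDUFC2-KCTD14 had a count of 0 in all 6 libraries, and the other 54 genes were abundant enough to be tested. The RNA came from HEK293T, a human embryonic kidney line that expresses the SV40 large T antigen. All cells were supplied with RfxCas13d, a CRISPR effector that cleaves RNA matched by its crRNA. In the control group of 3 libraries (NT) that effector was paired with a non-targeting crRNA, and in the other group of 3 libraries with a crRNA against mCherry, which encodes a red fluorescent protein and has no counterpart in human cells. The sources used here do not give how the effector was delivered, whether the cells held an mCherry mRNA or when they were collected. The labels call the 3 libraries of each group biological replicates, without saying what was separate about them, and p-values measure the spread between these libraries.

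Complex I is the entry point for electrons from NADH into the respiratory chain. Its peripheral arm holds the NADH-oxidising N module and the ubiquinone-reducing Q module, and its membrane arm pumps protons. The membrane arm is built around the subunits encoded by mitochondrial DNA, whereas every other subunit is imported from the cytosol, so that assembly draws on transcripts from both genomes. The core subunits are those conserved from bacteria, the supernumerary subunits surround and stabilise them, and the NDUFAF proteins help to put the complex together without being part of it.

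Total counts per library lay between 21321850 and 25906275. The share of counts of 7SK, an abundant nuclear RNA without a poly(A) tail, was 0.516%, 1.15% and 1.37% in the controls and 0.716%, 0.439% and 1.15% with the mCherry crRNA (libraries here and throughout in the order of their replicate numbers), so that libraries of both groups lay on either side of 1%. Of 9 genes expected in HEK293T, 8 were matched and all 8 had a mean of at least 1 CPM (counts relative to the library total, after TMM scaling). The blood markers PTPRC, HBB and HBA1, the fibroblast marker DCN and the hepatocyte or gut markers TTR, SERPINA1 and FABP1 had no count in any library. In bulk RNA, fewer cells with a transcript and less of it per cell cannot be told apart.

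No complex I gene passed the test between the mCherry-targeting and the non-targeting libraries. Of the 54 tested, 0 had an edgeR quasi-likelihood, Benjamini-Hochberg adjusted p under 0.05, against 2 of 19676 genes (0.0102%) over the whole table. The smallest adjusted p among them was 0.194, for NDUFA5. DESeq2, which gave no adjusted p for NDUFA7, NDUFA13, NDUFAF2, NDUFAF8 and NDUFA4L2, and limma-voom also called none of the complex I genes, and 0.879% and 0.00508% of all genes. At an unadjusted p under 0.05, edgeR gave 4 of the 54 (7.41%), against 16.1% of all genes tested (10.0% higher). These 4 were the supernumerary subunits NDUFA5, NDUFB8 and NDUFA12 and the assembly factor NDUFAF2. In all 4 the mCherry-targeting libraries lay above all non-targeting ones. No other complex I gene had groups that did not overlap, whereas 22.0% of all genes did, 12.6% with the mCherry-targeting libraries higher and 9.37% with them lower. The log2 fold change, mCherry-targeting over non-targeting, was above 0 for 32 of the 54 genes and below 0 for 22, and above 0 for 49.4% of all genes tested.

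The classes differed little in their central values. The median log2 fold change was -0.13 over the 7 core nuclear subunits, 0.075 over the 30 supernumerary subunits, 0.055 over the 8 assembly factors and 0.0073 over the 7 mitochondrially encoded subunits, beside -0.0037 over all genes tested. It was above 0 for 2 of the 7 core subunits, 19 of the 30 supernumerary subunits, 7 of the 8 assembly factors and 4 of the 7 mitochondrially encoded subunits. Omitting a single library turned the supernumerary median negative, to -0.071 without non-targeting replicate 1 and -0.049 without mCherry-targeting replicate 3. Single members ranged from -0.38 (NDUFA7) to 0.46 (NDUFAF2). These are counts and medians of members that share libraries, and no test was made over a class.

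**Figure D1:**
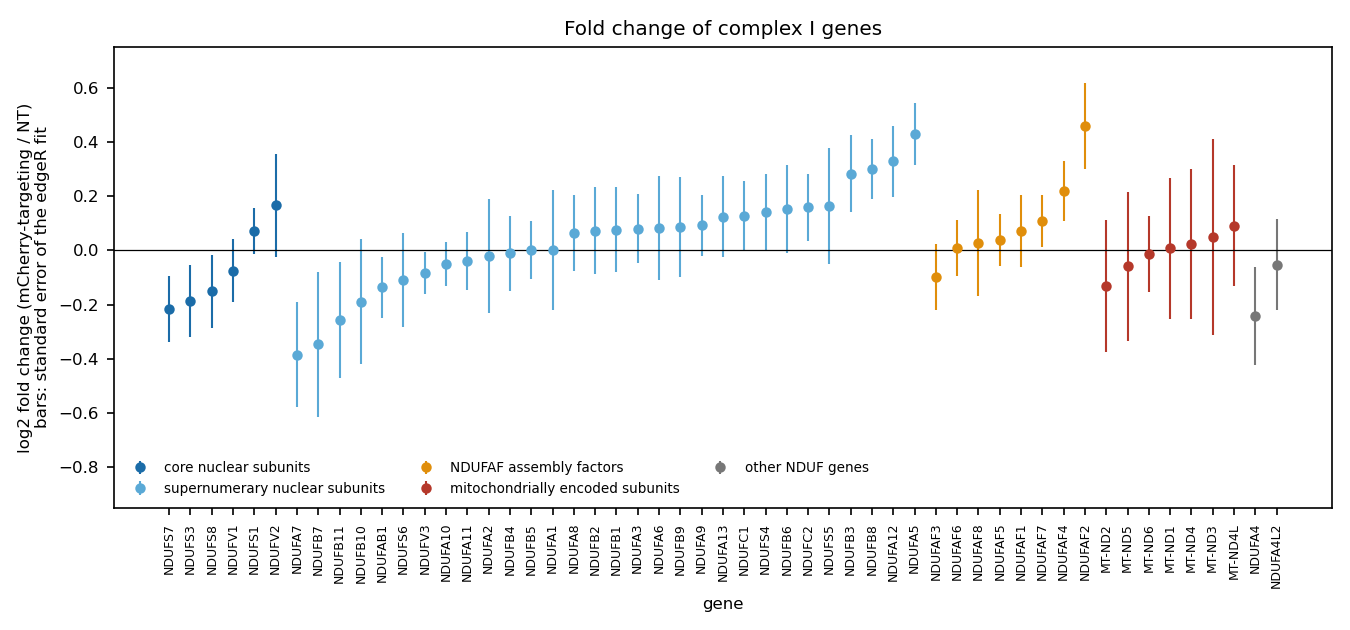
Log2 fold change (mCherry-targeting over non-targeting) of the complex I genes described singly, with the standard error of the edgeR fit as a bar, ordered by value within each class and coloured by class. NDUFAF2 at 0.46 and NDUFA5 at 0.43 are the highest points, and the bars of the 7 mitochondrially encoded subunits all cross 0.

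One library changed this picture when it was left out. When non-targeting replicate 1 was omitted, 1806 genes passed the edgeR test (8.98% of those tested, 5.68% higher and 3.31% lower), and 4 complex I genes were among them. NDUFA5 was then higher in the mCherry-targeting libraries, with a log2 fold change of 0.47, and NDUFS3, NDUFS7 and NDUFS8 were lower, with values of -0.34, -0.34 and -0.30. Non-targeting replicate 1 is the only control library with a 7SK share under 1%, and without it both controls lay above 1% while the mCherry-targeting libraries lay on both sides. A fit with a term for the 7SK share above or below 1% called 712 genes (3.62%, with 2.75% higher), among them NDUFA5, NDUFA12, NDUFB3 and NDUFAF2, all higher. NDUFB3, a membrane-arm subunit, had a log2 fold change of 0.41 in that fit and of 0.28 ± 0.14 (SE) without the term. Combined with a correction that removes the trend on GC content from each library, that fit called 0.178% of genes and NDUFA12 alone of complex I. With no filter on low counts edgeR called 1.68% of genes and NDUFA5 alone of complex I.

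The 7 subunits encoded by mitochondrial DNA form the membrane core of the enzyme. MT-ND1 lies where the ubiquinone channel meets the membrane, MT-ND2, MT-ND4 and MT-ND5 are antiporter-like pump subunits, and MT-ND3, MT-ND4L and MT-ND6 are small membrane subunits beside MT-ND1. On the mitochondrial chromosome of GRCh38 they lie at chrM:3307-4262, chrM:4470-5511, chrM:10059-10404, chrM:10470-10766, chrM:10760-12137 and chrM:12337-14148 on the plus strand, with MT-ND6 at chrM:14149-14673 on the minus strand. MT-ND4L and MT-ND4 are read from one bicistronic mRNA, and the last bases of the first open reading frame are the first of the second. Reads that span those bases overlap both genes. The sequences are shown to make that shared stretch visible, its 7 bases in capitals (GENCODE, GRCh38, plus strand, chrM:10470-10766 for all of MT-ND4L and chrM:10760-10819 for the start of MT-ND4).
MT-ND4L: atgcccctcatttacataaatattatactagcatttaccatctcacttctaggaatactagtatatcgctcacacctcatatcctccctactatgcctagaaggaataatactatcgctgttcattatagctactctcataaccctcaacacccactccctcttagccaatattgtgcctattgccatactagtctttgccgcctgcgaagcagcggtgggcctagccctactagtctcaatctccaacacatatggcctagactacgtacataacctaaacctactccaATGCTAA
MT-ND4, first 60 bases: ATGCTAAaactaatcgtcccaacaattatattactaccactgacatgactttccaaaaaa

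MT-ND6 is the one member on the other strand, and its base composition sets it apart. G made up 35.6% of MT-ND6 but 9.5% to 12.1% of the other 6 mitochondrially encoded members, while the GC content of all 7 lay between 40.2% and 47.7%. The start of MT-ND6 (chrM:14584-14673, minus strand) is shown beside that of its neighbour MT-ND5 (chrM:12337-12426, plus strand), with each G in capitals (GENCODE, GRCh38).
MT-ND6, first 90 bases: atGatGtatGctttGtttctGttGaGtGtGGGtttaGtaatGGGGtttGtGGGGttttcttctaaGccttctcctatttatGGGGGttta
MT-ND5, first 90 bases: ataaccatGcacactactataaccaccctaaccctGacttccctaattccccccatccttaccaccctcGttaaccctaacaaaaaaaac

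Transcripts of the pump subunits did not separate the groups. MT-ND4 was at 515, 458 and 291 CPM in the controls and 298, 429 and 558 CPM with the mCherry crRNA. MT-ND5 was at 277, 227 and 136 CPM in the non-targeting and 156, 223 and 235 CPM in the mCherry-targeting libraries. MT-ND2 was at 209, 153 and 109.9 CPM in the non-targeting and 112, 155 and 164 CPM in the mCherry-targeting libraries. In all 3 genes non-targeting replicate 3 and mCherry-targeting replicate 1 were the lowest pair, and the groups overlapped. Log2 fold changes were 0.024 ± 0.28 (SE) for MT-ND4, -0.058 ± 0.28 (SE) for MT-ND5 and -0.13 ± 0.24 (SE) for MT-ND2, with edgeR adjusted p of 0.975, 0.937 and 0.831.

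MT-ND1, at the ubiquinone channel, was at 154, 127 and 79.7 CPM in the non-targeting and 91.8, 138 and 133 CPM in the mCherry-targeting libraries. Its lowest libraries were again non-targeting replicate 3 and mCherry-targeting replicate 1, and its log2 fold change was 0.0073 ± 0.26 (SE; edgeR adjusted p = 0.992). MT-ND4L was at 40.8, 27.4 and 21.3 CPM in the non-targeting and 27.0, 30.4 and 37.9 CPM in the mCherry-targeting libraries, with the highest value in non-targeting replicate 1 and the lowest in non-targeting replicate 3. Its log2 fold change was 0.091 ± 0.22 (SE), with an edgeR adjusted p of 0.875. MT-ND3 was at 30.5, 28.6 and 23.4 CPM in the non-targeting and 16.2, 24.4 and 44.8 CPM in the mCherry-targeting libraries. The mCherry-targeting libraries of MT-ND3 thus held both its lowest and its highest value, 2.77-fold apart, the widest span of any complex I gene tested. MT-ND3 had a log2 fold change of 0.048 ± 0.36 (SE) and an edgeR adjusted p of 0.961.

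MT-ND6 followed another order over the libraries than the plus-strand members. It was at 70.7, 70.0 and 48.7 CPM in the controls and 70.1, 61.4 and 56.2 CPM with the mCherry crRNA. Non-targeting replicate 3 was again the lowest, but mCherry-targeting replicate 1 was level with the highest libraries and mCherry-targeting replicate 3 was the second lowest. The highest library was 1.45-fold above the lowest, the narrowest span of the 7 mitochondrially encoded members. Its log2 fold change was -0.013 ± 0.14 (SE), with an edgeR adjusted p of 0.972. No test of the difference between MT-ND6 and the other members was made.

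The mitochondrially encoded members varied more between libraries of a group than the nuclear ones. The SD of log2 CPM within groups had a median of 0.415 over the 7 mitochondrially encoded members, 0.237 over the supernumerary subunits, 0.202 over the core nuclear subunits and 0.137 over the assembly factors. Over 11080 protein-coding genes with a mean of at least 5 CPM it was 0.123. Non-targeting replicate 1 was the highest library for 5 of the 7 mitochondrially encoded members and mCherry-targeting replicate 3 for the other 2. Non-targeting replicate 3 was the lowest for 6 and mCherry-targeting replicate 1 for 1. The median log2 fold change of these 7 genes was 0.17 without non-targeting replicate 1 and -0.19 without non-targeting replicate 3, and likewise 0.18 and -0.17 without mCherry-targeting replicates 1 and 3. Single libraries of either group thus set its sign.

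**Figure D2:**
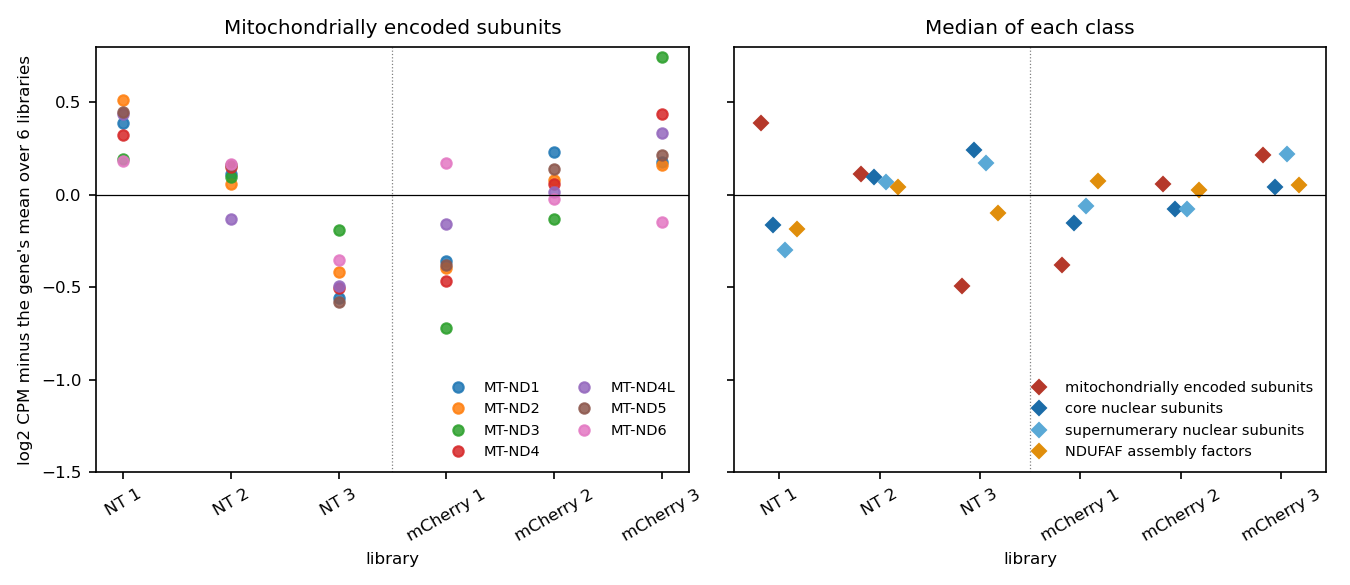
Log2 CPM minus the mean of the gene over the 6 libraries, by library (NT, non-targeting; mCherry, mCherry-targeting), for each mitochondrially encoded subunit (left, circles) and as the median of each class (right, diamonds). On the left all points are above 0 in NT 1 and all are below 0 in NT 3, while the medians of the core and supernumerary nuclear subunits on the right are below 0 in NT 1 and above 0 in NT 3.

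Copies of mitochondrial DNA in the nuclear genome can take reads from the MT-ND genes or give reads to them. Of the 50-base windows of each mitochondrially encoded member, the share found unchanged in an annotated nuclear copy was 43.6% for MT-ND2, 22.1% for MT-ND1, 17.9% for MT-ND6, 4.76% for MT-ND5, 3.54% for MT-ND4 and 0% for MT-ND3 and MT-ND4L. The sources used here do not say how reads that fit several places were counted, so the counts of MT-ND2, MT-ND1 and MT-ND6 are the least certain. The table held 208 such copies, and 8 had a mean of at least 1 CPM. MTND2P28 and MTND1P23 on chromosome 1, which hold the most windows of MT-ND2 and MT-ND1, were not among these 8. On chromosome 5, MTND4P12 was at 8.17, 6.74 and 3.46 CPM in the non-targeting and 4.33, 6.83 and 6.49 CPM in the mCherry-targeting libraries, with its low libraries in the same places as MT-ND4. MTND5P11, beside it on chromosome 5, was at 2.72, 2.33 and 1.14 CPM in the non-targeting and 1.87, 2.74 and 2.55 CPM in the mCherry-targeting libraries, and MTND6P4 was at 2.45, 2.13 and 1.31 CPM in the non-targeting and 2.08, 2.26 and 1.91 CPM in the mCherry-targeting libraries. On the X chromosome, MTND5P26 was at 9.35, 8.08 and 5.49 CPM in the non-targeting and 10.2, 10.3 and 7.72 CPM in the mCherry-targeting libraries. There the low libraries were non-targeting replicate 3 and mCherry-targeting replicate 3, unlike MT-ND5. MTND1P32 was at 7.26, 5.83 and 4.43 CPM in the non-targeting and 7.99, 8.22 and 4.97 CPM in the mCherry-targeting libraries, with its low libraries in the same places as MTND5P26. The other copies on the X chromosome were MTND2P2, at 6.90, 6.35 and 4.64 CPM in the non-targeting and 8.86, 9.60 and 6.54 CPM in the mCherry-targeting libraries, and MTND4P32, at 6.40, 4.89 and 3.08 CPM in the non-targeting and 5.99, 7.34 and 4.50 CPM in the mCherry-targeting libraries. MTND5P2, on chromosome 13, was at 2.18, 1.73 and 1.73 CPM in the non-targeting and 1.87, 2.82 and 1.66 CPM in the mCherry-targeting libraries. None of the 8 copies had an edgeR adjusted p under 0.05, and MTND2P2 had the smallest, 0.251. With a replicate block MTND2P2 had an edgeR adjusted p of 0.0461, in a fit that called 6.14% of all genes.

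The core nuclear subunits carry the electron path, with the flavin and most iron-sulfur clusters in NDUFV1, NDUFV2 and NDUFS1 of the N module and the remaining clusters in NDUFS7 and NDUFS8 of the Q module. Of the 7, 5 had lower mean levels with the mCherry crRNA, and none passed the test. NDUFS7 was at 61.7, 76.7 and 86.3 CPM in the controls and 62.0, 59.5 and 72.0 CPM with the mCherry crRNA. NDUFS3, a structural subunit of the Q module, was at 42.5, 57.5 and 64.7 CPM in the non-targeting and 47.5, 45.6 and 51.8 CPM in the mCherry-targeting libraries. In both genes the groups overlapped, with non-targeting replicate 3 the highest of the 6 libraries. Their log2 fold changes were -0.22 ± 0.12 (SE) and -0.19 ± 0.13 (SE), with edgeR adjusted p of 0.398 and 0.518.

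NDUFS8 was at 79.4, 104 and 121 CPM in the non-targeting and 85.9, 88.8 and 99.9 CPM in the mCherry-targeting libraries, with its lowest and its highest value both in the control group. Its log2 fold change was -0.15 ± 0.13 (SE), with an edgeR adjusted p of 0.602. NDUFV1, the NADH-binding subunit, had a log2 fold change of -0.074 ± 0.12 (SE), and NDUFS1, the largest subunit, one of 0.071 ± 0.085 (SE). Both changed sign with the GC correction, to 0.083 for NDUFV1 and -0.063 for NDUFS1, and NDUFV1 was also above 0 with the 7SK term, at 0.024. NDUFV2 was at 22.6, 15.1 and 12.8 CPM in the non-targeting and 19.5, 20.7 and 16.3 CPM in the mCherry-targeting libraries. Its order over the control libraries was the reverse of that of NDUFS3, NDUFS7, NDUFS8 and NDUFV1: non-targeting replicate 1 was its highest library and non-targeting replicate 3 its lowest. The log2 fold change of NDUFV2 was 0.17 ± 0.19 (SE; edgeR adjusted p = 0.695). The processed copy NDUFV2P1 held 14.7% as many counts as NDUFV2, and 28.4% of the exonic bases of NDUFV2 are shared with another transcript on the same strand, so its count is uncertain. NDUFS3 likewise shares 19.6% of its exonic bases with PTPMT1.

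Among the supernumerary subunits, NDUFA5, NDUFB8 and NDUFA12 had the smallest p-values, and each was higher in the mCherry-targeting libraries. NDUFA5 (ENSG00000128609.10, chr7:123536997-123558255, minus strand), a Q-module subunit, was at 40.4, 43.1 and 31.8 CPM in the controls and 54.7, 48.9 and 51.8 CPM with the mCherry crRNA. All mCherry-targeting libraries lay above all controls, and the lowest control was replicate 3. Its means of 38.5 ± 5.88 CPM and 51.8 ± 2.91 CPM (SD, n = 3 each) differed 1.35-fold. The log2 fold change was 0.43 ± 0.11 (SE), with an adjusted p of 0.194 by edgeR and 0.0532 by DESeq2. After correction for GC content alone the log2 fold change of NDUFA5 was 0.16.

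NDUFB8 (ENSG00000166136.11, chr10:100523740-100530000, minus strand), a membrane-arm subunit, was at 12.8, 14.3 and 13.7 CPM in the controls and 17.6, 16.0 and 16.8 CPM with the mCherry crRNA. These were narrow groups that did not touch, with means of 13.6 ± 0.736 CPM and 16.8 ± 0.805 CPM (SD, n = 3 each). The log2 fold change was 0.30 ± 0.11 (SE), with an edgeR adjusted p of 0.236, and it was 0.40 after the GC correction. Another protein-coding gene on the same strand shares 33.8% of the exonic bases of NDUFB8, so its count is uncertain. NDUFA12 (ENSG00000184752.8, chr12:94897055-95003770, minus strand), which sits in the N module, was at 20.0, 24.6 and 25.2 CPM in the controls and 27.1, 26.1 and 34.5 CPM with the mCherry crRNA. Its highest control and its lowest mCherry-targeting library were less than 1 CPM apart, and mCherry-targeting replicate 3 stood above the rest. The log2 fold change of NDUFA12 was 0.33 ± 0.13 (SE), with an edgeR adjusted p of 0.261.

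The other supernumerary subunits had groups that overlapped. NDUFB4, a membrane-arm subunit and the most abundant supernumerary transcript per length, was at 59.9, 78.6 and 90.2 CPM in the non-targeting and 72.1, 69.4 and 85.7 CPM in the mCherry-targeting libraries. Its lowest and highest libraries were both controls, and its log2 fold change was -0.01 ± 0.14 (SE; edgeR adjusted p = 0.978). NDUFA9, a Q-module subunit and the least abundant per length, was at 15.3, 17.7 and 15.5 CPM in the non-targeting and 16.7, 18.4 and 16.6 CPM in the mCherry-targeting libraries, with a log2 fold change of 0.093 ± 0.11 (SE; edgeR adjusted p = 0.715). The transcript chosen for NDUFA9 had 8363 bases, against a class median of 864.5. Without regard to length, NDUFA9 had a mean of 16.7 CPM, above the 4.07 CPM of NDUFA7. The processed copy NDUFA9P1 held 18.3% as many counts as NDUFA9. The lowest fold change was that of NDUFA7, at 4.95, 4.22 and 4.69 CPM in the non-targeting and 3.54, 4.33 and 2.72 CPM in the mCherry-targeting libraries. Its log2 fold change was -0.38 ± 0.19 (SE; edgeR adjusted p = 0.352), and it shares 32.3% of its exonic bases with another gene on the same strand. The widest span over the 6 libraries was that of NDUFB7, whose highest library was 2.11-fold above its lowest, and the narrowest that of NDUFV3, at 1.11-fold.

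Sorted by module, the nuclear subunits showed no direction common to an arm. Of 10 N-module subunits, 5 had a log2 fold change above 0 and 5 below, with a median of 0.025. Of 6 Q-module subunits, 2 were above 0 and 4 below, with a median of -0.14. Of 21 nuclear subunits of the membrane arm, 14 were above 0 and 7 below, with a median of 0.073. None of these 37 genes was called, and 1 in each module had an unadjusted edgeR p under 0.05 (NDUFA12, NDUFA5 and NDUFB8), against 16.1% of all genes tested.

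The assembly factors had the smallest median spread between libraries of the 4 main classes, and none passed the test. NDUFAF2 (ENSG00000164182.6, chr5:60945129-61153037, plus strand), a paralog of NDUFA12 that holds the late assembly intermediate before NDUFA12 joins it, had the highest fold change of any complex I gene. It was at 4.81, 5.64 and 5.32 CPM in the controls and 6.99, 6.31 and 8.40 CPM with the mCherry crRNA. The groups did not overlap, and the means were 5.26 ± 0.416 CPM and 7.24 ± 1.07 CPM (SD, n = 3 each). Its log2 fold change was 0.46 ± 0.16 (SE), or 1.37-fold, with an edgeR adjusted p of 0.223, and DESeq2 gave it no adjusted p. The processed copy NDUFAF2P2 held 25.9% as many counts as NDUFAF2, the largest such share among the nuclear members, so that its count is uncertain.

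NDUFAF4, which acts on the early intermediates together with NDUFAF3, was at 21.7, 27.7 and 25.5 CPM in the non-targeting and 29.8, 27.2 and 30.4 CPM in the mCherry-targeting libraries, and NDUFAF3 was at 80.2, 109 and 114 CPM in the non-targeting and 89.4, 91.7 and 102 CPM in the mCherry-targeting libraries. The groups of both genes overlapped, and their log2 fold changes were 0.22 ± 0.11 (SE) and -0.099 ± 0.12 (SE), with edgeR adjusted p of 0.350 and 0.718. NDUFAF7, a methyltransferase of the mitochondrial matrix, was at 27.0, 28.5 and 24.9 CPM in the non-targeting and 28.6, 29.6 and 28.4 CPM in the mCherry-targeting libraries, with a log2 fold change of 0.11 ± 0.10 (SE; edgeR adjusted p = 0.599). NDUFAF5, which hydroxylates NDUFS7, was at 28.2, 28.7 and 25.5 CPM in the non-targeting and 28.8, 28.5 and 27.1 CPM in the mCherry-targeting libraries, with a log2 fold change of 0.037 ± 0.10 (SE; edgeR adjusted p = 0.879). Both genes spanned 1.19-fold and 1.13-fold over the 6 libraries. NDUFAF1, NDUFAF6 and NDUFAF8 had log2 fold changes of 0.073, 0.0081 and 0.029, each within its SE of 0.

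NDUFA4, named for complex I but now assigned to complex IV, was at 51.3, 75 and 81.5 CPM in the controls and 55.6, 49.3 and 71.1 CPM with the mCherry crRNA. Its groups overlapped, with non-targeting replicate 3 the highest and mCherry-targeting replicate 2 the lowest, and its log2 fold change was -0.24 ± 0.18 (SE; edgeR adjusted p = 0.540). Its hypoxia-inducible paralog NDUFA4L2 was at 4.18, 4.37 and 3.50 CPM in the non-targeting and 3.70, 3.81 and 4.12 CPM in the mCherry-targeting libraries, with a log2 fold change of -0.05 ± 0.17 (SE; edgeR adjusted p = 0.904).

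Per kilobase of transcript, the mitochondrially encoded members were the most abundant class. Their mean levels over the 6 libraries had a median of 119.7 CPM per kb and ran from 80.9 for MT-ND3 to 308 for MT-ND4. The core nuclear subunits had a median of 53.9 CPM per kb, from 19.2 for NDUFV2 to 122 for NDUFS8. The supernumerary subunits had a median of 30.6 CPM per kb, from 2.00 for NDUFA9 to 113 for NDUFB4. The assembly factors had a median of 11.9 CPM per kb, from 5.03 for NDUFAF5 to 48.6 for NDUFAF3. Thus NDUFS8 and NDUFB4 reached the level of MT-ND5 and MT-ND6, at 115 and 119.7 CPM per kb. In the order of the mitochondrially encoded members, MT-ND3, MT-ND4L, MT-ND5, MT-ND6, MT-ND1 and MT-ND2 followed each other within the spread of their libraries, and MT-ND4 lay above all of them in its mean. Outside complex I, MT-CO1 of complex IV stood at 3664 CPM per kb. Levels per length depend on the transcript chosen for each gene, and untranslated ends that the cells do not use lower them.

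**Figure D3:**
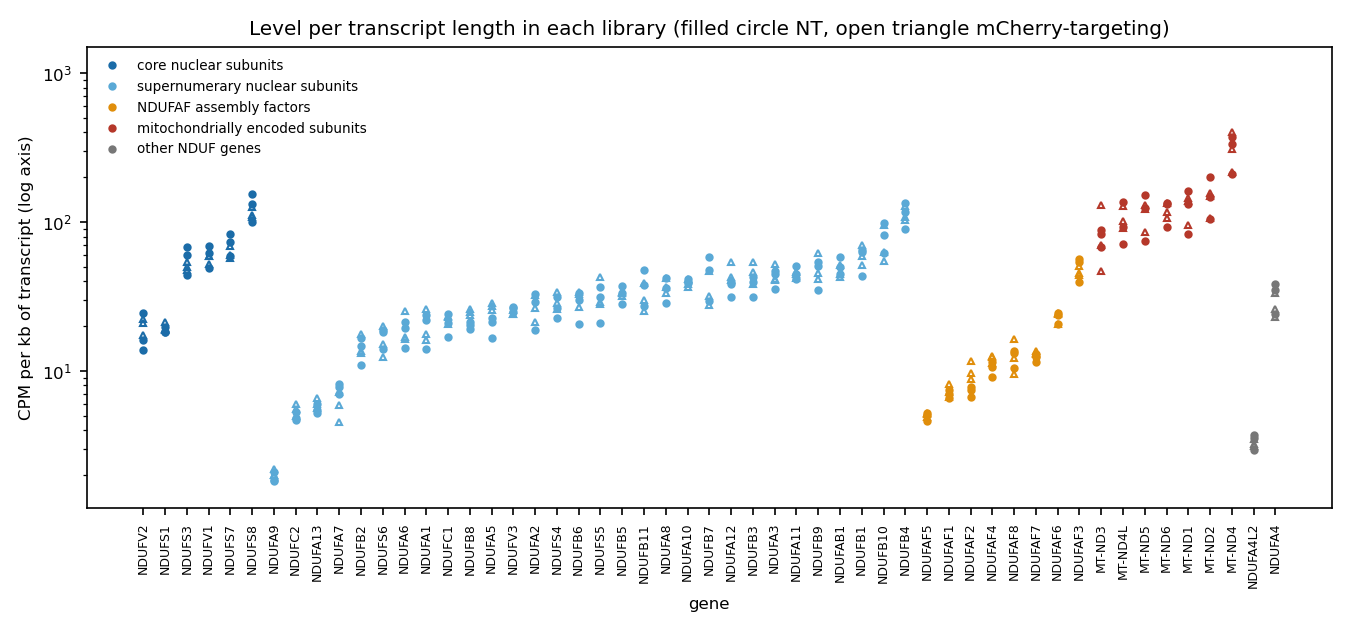
Level of the complex I genes described singly in each library in CPM per kb of transcript, on a log axis, ordered within class (filled circles, non-targeting; open triangles, mCherry-targeting; colours, classes). The circles and triangles of most genes overlap, the means of the mitochondrially encoded members run from MT-ND3 at 80.9 to MT-ND4 at 308, and NDUFA9 is the lowest supernumerary subunit.

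As a share of all counts, mitochondrial and nuclear complex I transcripts were level between the groups. The 7 mitochondrially encoded members took 0.134%, 0.107% and 0.0687% of the counts in the controls and 0.0796%, 0.107% and 0.119% with the mCherry crRNA. The means were 0.103% ± 0.0329 and 0.102% ± 0.0204 (SD, n = 3 each). The 37 nuclear subunits took 0.165%, 0.186% and 0.196% in the non-targeting and 0.179%, 0.176% and 0.194% in the mCherry-targeting libraries, with means of 0.182% ± 0.0155 and 0.183% ± 0.00949 (SD, n = 3 each). Both differences between means were smaller than either SD. The ratio of mitochondrial to nuclear subunit counts was 0.811, 0.574 and 0.351 in the controls and 0.446, 0.609 and 0.617 with the mCherry crRNA, so that its highest and its lowest value were both controls.

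Within the control group the shares of the mitochondrially encoded members and of the nuclear subunits of complex I ran in opposite orders. Other mitochondrially encoded mRNAs did not all follow the order of these members, and MT-CO3 was highest among the controls in non-targeting replicate 3. Non-targeting replicate 1 had the highest mitochondrial and the lowest nuclear share, and non-targeting replicate 3 had the lowest mitochondrial and the highest nuclear share. Of the 30 supernumerary subunits, 19 had their lowest level in non-targeting replicate 1, as did 4 of the 7 core subunits and 4 of the 8 assembly factors. The highest level fell in mCherry-targeting replicate 3 for 12 of the supernumerary subunits and in non-targeting replicate 3 for 8 of them and for 5 of the 7 core subunits. NDUFV2, NDUFA7 and NDUFA11 ran against this, each with its highest level in non-targeting replicate 1. The mCherry-targeting group did not repeat the opposition, since its replicate 3 had both the highest mitochondrial and the highest nuclear share. The log2 difference of non-targeting replicate 3 minus replicate 1 had Spearman's correlations of 0.54 with GC content and -0.45 with transcript length. These were over 11080 protein-coding genes with a mean of at least 5 CPM. Over 47 nuclear complex I genes they were 0.25 and -0.30. Median lengths were 864.5 bases for the supernumerary subunits and 3368 bases for those protein-coding genes. Whether length or GC content bears on these orders was not tested.

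**Figure D4:**
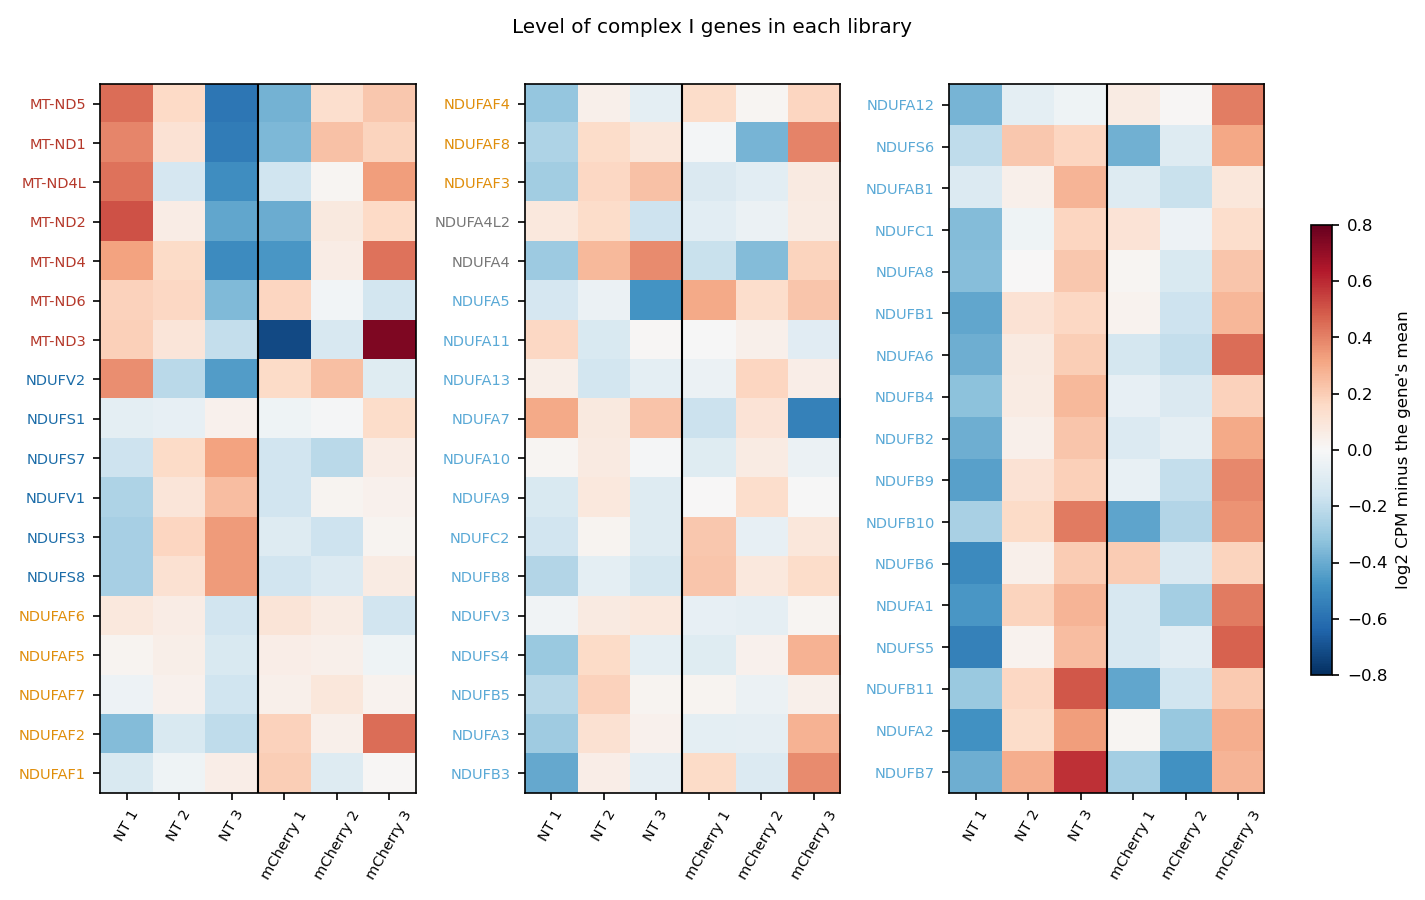
Log2 CPM minus the mean of the gene, for the complex I genes described singly (rows) in each library (columns; NT, non-targeting; mCherry, mCherry-targeting), with gene names coloured by class (red mitochondrially encoded, dark blue core nuclear, orange assembly factors, grey other, light blue supernumerary) and ordered within class by the difference between NT 3 and NT 1. NT 1 is red and NT 3 blue for the mitochondrially encoded rows, and NT 1 is blue for most supernumerary rows.

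The fold changes of the nuclear members fell with the GC content of their transcripts, with a weaker correlation than over other genes. Over 47 nuclear complex I genes, Spearman's correlation of log2 fold change with GC content was -0.52, beside -0.76 over 11080 protein-coding genes with a mean of at least 5 CPM. These are correlations across genes of the same 6 libraries, and genes are not independent replicates. Of the 14 nuclear members with a GC content under 45%, 12 had a log2 fold change above 0, as did 87.7% of the protein-coding genes in that range. Of the 20 between 45% and 55%, 13 were above 0, against 35.4%, and of the 13 at 55% or more, 3 were above 0, against 9.43%. NDUFA5, with 36.4% GC, lay at the low end and NDUFS7, with 66.5%, at the high end. NDUFB8, with 54.7% GC, was above 0, like most members but fewer of the protein-coding genes in its range.

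Removing the GC trend from each library moved the class medians of log2 fold change to -0.05 for the core nuclear subunits, 0.065 for the supernumerary subunits, 0.015 for the assembly factors and -0.11 for the mitochondrially encoded members. Then 3 of the 7 core subunits, 19 of the 30 supernumerary subunits, 4 of the 8 assembly factors and 1 of the 7 mitochondrially encoded members were above 0. With this correction edgeR called 0 complex I genes and 0.00508% of all genes.

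**Figure D5:**
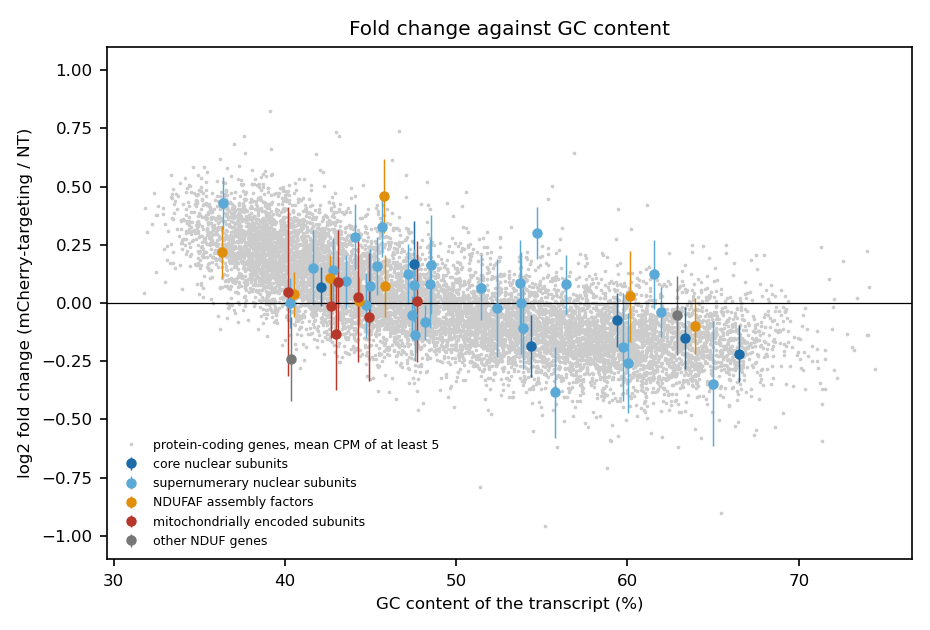
Log2 fold change (mCherry-targeting over non-targeting) against the GC content of the transcript in percent, for protein-coding genes with a mean of at least 5 CPM (grey) and the complex I genes described singly (coloured by class, bars are standard errors of the edgeR fit); 3 grey genes lie outside the vertical axis. Complex I genes under 45% GC mostly lie above 0, and those at 55% or more mostly below.

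Nuclear respiratory genes are classically activated by NRF1 and GABP (whose DNA-binding subunit is GABPA), and many also hold sites for YY1. Promoters of 40 members were matched by symbol in RefSeq (GRCh38.p14), from 250 bases before the first listed start to 50 after it. On both strands, the NRF1 letters GCGC, any 2 bases and GCGC were found in 8 of the 40 windows (20.0%) and in 8.78% of 27305 promoters of the same length. The GABPA letters CCGGAAG were in 6 (15%), against 10.7%, and the YY1 letters AAGATGGC in 6 (15%), against 3.03%. No member window had matches of different motifs that overlapped. Such a match is a string of letters and not a mapped site. The windows of NDUFA5, NDUFB8 and NDUFAF2, whose mCherry-targeting libraries all lay above the controls, held no match of these motifs. That of NDUFA5 (chr7:123601602-123601901) lies outside the span printed above for the gene, upstream of its annotated start at chr7:123558255. Its lack of a match therefore does not describe a promoter at that start. Of core subunits with lower means, NDUFS8 and NDUFV1 held none and NDUFS7 a YY1 match. A link between motif and direction was not tested. The upstream 250 bases are shown for NDUFA12, whose level was higher with the mCherry crRNA, and for NDUFS3, whose mean was lower. With all libraries and group as the only term, neither was called. Capitals mark the NRF1 letters of NDUFA12 (chr12:95003698-95003947, minus strand). In NDUFS3 (chr11:47578824-47579073, plus strand) they mark the pair of GABPA matches, one on each strand.
NDUFA12 promoter: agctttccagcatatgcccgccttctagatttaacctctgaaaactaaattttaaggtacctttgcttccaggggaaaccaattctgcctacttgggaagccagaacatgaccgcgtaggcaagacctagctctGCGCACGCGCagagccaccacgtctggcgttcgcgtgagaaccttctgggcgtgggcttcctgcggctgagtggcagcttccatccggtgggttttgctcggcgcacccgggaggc
NDUFS3 promoter: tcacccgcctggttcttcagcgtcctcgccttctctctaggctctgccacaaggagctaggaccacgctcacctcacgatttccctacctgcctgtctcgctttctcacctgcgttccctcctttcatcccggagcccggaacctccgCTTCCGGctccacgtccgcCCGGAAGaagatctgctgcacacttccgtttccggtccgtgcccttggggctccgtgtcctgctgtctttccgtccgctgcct

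No gene of the related pathway lists passed the test. Among 12 further assembly factors, 6 had a log2 fold change above 0, 2 an unadjusted edgeR p under 0.05 with higher and 2 with lower values. Over all genes tested 16.1% had such a p, 10.0% with higher values. TMEM126B, part of the complex that assembles the membrane arm, was at 32.7, 37.6 and 33.4 CPM in the non-targeting and 42.3, 40.8 and 44.8 CPM in the mCherry-targeting libraries, with all mCherry-targeting libraries above all controls. Its log2 fold change was 0.30 ± 0.093 (SE), with an edgeR adjusted p of 0.204. ECSIT, of the same assembly complex, was at 35.5, 43.0 and 52.1 CPM in the non-targeting and 34.7, 31.4 and 38.6 CPM in the mCherry-targeting libraries, and its groups overlapped. The log2 fold change of ECSIT was -0.32 ± 0.13 (SE), with an edgeR adjusted p of 0.276. After the GC correction the log2 fold changes of TMEM126B, with 37.2% GC, and ECSIT, with 61.8% GC, were 0.04 and -0.15. With 7SK as a term TMEM126B passed the test, with a log2 fold change of 0.34 (edgeR adjusted p = 0.0283), in a fit that called 3.62% of all genes.

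In the other respiratory complexes most nuclear subunits had log2 fold changes below 0 and none was called. Above 0 were 1 of 4 subunits of complex II, 3 of 9 of complex III, 2 of 10 of complex IV and 5 of 15 of complex V, with medians of -0.12, -0.05, -0.15 and -0.071. The members with the smallest p in complexes II and III were, with log2 fold change and SE, SDHA (-0.13 ± 0.083), SDHC (-0.16 ± 0.10), UQCRFS1 (-0.23 ± 0.11) and CYC1 (-0.33 ± 0.17). Those of complexes IV and V were COX6C (0.20 ± 0.10), COX8A (-0.24 ± 0.18), ATP5MC2 (-0.26 ± 0.13) and ATP5F1B (-0.22 ± 0.13). The smallest edgeR adjusted p among them was 0.308, for UQCRFS1, the Rieske iron-sulfur subunit of complex III. At an unadjusted edgeR p under 0.05 there was 1 gene of complex III, with lower values, and 0 of complexes II, IV and V, against 16.1% of all genes tested.

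Of the 6 other mitochondrially encoded mRNAs, 3 had a log2 fold change above 0. MT-CO1, the catalytic subunit of complex IV, was at 5843, 6219.6 and 5402 CPM in the non-targeting and 5356, 5277 and 5804 CPM in the mCherry-targeting libraries, with a log2 fold change of -0.09 ± 0.12 (SE; edgeR adjusted p = 0.756). The low value of non-targeting replicate 3 seen for MT-ND4 and MT-ND5 also appeared for MT-ATP6, a proton-channel subunit of complex V, at 132, 103 and 64.6 CPM in the non-targeting and 88.1, 110.5 and 107 CPM in the mCherry-targeting libraries. MT-CO3, of complex IV, was at 846, 1022 and 1085 CPM in the non-targeting and 777, 857 and 1254 CPM in the mCherry-targeting libraries, with non-targeting replicate 3 the highest control. MT-ATP8 was at 4.45, 4.41 and 2.91 CPM in the non-targeting and 4.99, 5.99 and 3.61 CPM in the mCherry-targeting libraries, with a log2 fold change of 0.31 ± 0.22 (SE; edgeR adjusted p = 0.518).

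Among the pathway lists, the smallest p-values fell to regulators of respiratory genes and of mitochondrial mRNA, and none passed the test. Of 9 genes for their transcription, 6 had a log2 fold change above 0, and of 6 genes for the stability and processing of mitochondrial mRNA, 4 did. The first list had 2 genes with an unadjusted edgeR p under 0.05 and higher values and 1 with lower, and the second had 2, both higher. Over all genes tested 16.1% had such a p, 10.0% with higher values. TFAM, which packages mitochondrial DNA and starts its transcription, was at 79.7, 79.8 and 68.1 CPM in the non-targeting and 104, 94.4 and 94.0 CPM in the mCherry-targeting libraries. GABPA was at 76.8, 66.1 and 55.1 CPM in the non-targeting and 82.3, 81.8 and 79.8 CPM in the mCherry-targeting libraries. In both genes all mCherry-targeting libraries lay above all controls, with log2 fold changes of 0.36 ± 0.089 (SE) and 0.30 ± 0.11 (SE) and edgeR adjusted p of 0.193 and 0.234. LRPPRC, which stabilises mitochondrial mRNAs, was at 263, 277 and 259 CPM in the non-targeting and 311, 338 and 331 CPM in the mCherry-targeting libraries. PNPT1, the mitochondrial polynucleotide phosphorylase, was at 71.7, 83.9 and 70.1 CPM in the non-targeting and 97.2, 92.2 and 97.6 CPM in the mCherry-targeting libraries. Both again had groups that did not overlap, with log2 fold changes of 0.29 ± 0.082 (SE) and 0.35 ± 0.088 (SE) and edgeR adjusted p of 0.195 and 0.194. All mCherry-targeting libraries likewise lay above all controls for 12.6% of all genes tested. TFAM, GABPA, LRPPRC and PNPT1 have GC contents of 38.4%, 36.4%, 42.4% and 40.8%, in the range where 87.7% of protein-coding genes had a log2 fold change above 0, and after the GC correction their log2 fold changes were 0.13, 0.04, 0.17 and 0.18. When non-targeting replicate 1 was omitted, TFAM, GABPA and PNPT1 passed the edgeR test with higher values, with log2 fold changes of 0.40, 0.42 and 0.31. Lower in that fit, and past the same test, were ECSIT (-0.44), UQCRFS1 (-0.35), CYC1 (-0.50), ATP5MC2 (-0.39) and ATP5F1B (-0.36). That fit called 8.98% of all genes tested, 5.68% with higher and 3.31% with lower values. TFAM and PNPT1 also passed with no filter on low counts, with edgeR adjusted p of 0.0249 and 0.0352, and with 7SK as a term, with 0.0191 and 0.0107. Beside TMEM126B, LRPPRC passed with 7SK as a term (edgeR adjusted p = 0.0326), and CYC1 passed with no filter (edgeR adjusted p = 0.0479). Over all genes tested, 1.68% passed with no filter and 3.62% with 7SK as a term.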

How the data were processed

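Poly(A)-selected, strand-marked (dUTP) and randomly primed RNA libraries of HEK293T were sequenced, 3 per group. The authors deposited raw counts per gene, as whole numbers, the 6 libraries side by side. Cutadapt 4.4 and STAR 2.7.4a were used with hg19 (GRCh37), per the submitters' processing notes. The counter, its strand setting and its handling of multiply mapped reads are not given in the sources used, so overlapping and near-identical genes are uncertain.

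The 57820 identifiers were matched without version to GENCODE annotation on GRCh38 (52338 matched, 39538 with a symbol). All coordinates printed are GRCh38. Length and GC content are those of the longest principal transcript. Complex I genes, classes and pathway lists were chosen with earlier results of these data known.

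The test was that of edgeR 4.0.16 under R 4.3.3 (TMM scaling, filterByExpr, robust quasi-likelihood F test, group as the only term), with Benjamini-Hochberg adjustment over the 19676 genes tested. An adjusted p under 0.05 was a call. The standard error is the absolute log2 fold change divided by the square root of F. The common biological coefficient of variation was 0.113. Depth per library lay between 21321850 and 25906275 counts. The fit was run on simulated counts with the same coefficient of variation for every gene and no trend on GC content or length. That simulation cannot show how the test behaves with the GC trend of these data. Values in every library were printed for the 7 mitochondrially encoded members, for the 3 with the smallest p and those with the highest and lowest level per kb in each nuclear class, for NDUFA4 and NDUFA4L2, for the 2 genes with the smallest p of each pathway list and for nuclear MTND copies with a mean of at least 1 CPM. For complexes II to V only their fold changes are printed. A further complex I gene named by these rules is not reported here and is left out of the figures, and class counts and medians include it. Other members given by fold change or span alone, and NDUFA7, MT-ATP6 and MT-CO3, were chosen after their values were seen. FASTKD4 was matched as TBRG4, and of the listed marker genes 1 (NEFL) had no match.

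Alternatives were other size factors, library sizes alone, no filter or one at a mean of 5 CPM, DESeq2 1.42.0, limma-voom (limma 3.58.1), a replicate block, a correction for GC content (per-library loess trend, span 0.5), a term for a 7SK share above or below 1%, combinations of these, and leaving out each library in turn.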

Additional observations from a re-analysis of the deposited data

How the results depend on the processing

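The number of genes called by edgeR, 2 of 19676, became 1 with library sizes alone, 1 with a mean CPM of at least 5, 1 with the GC correction, 597 with no filter, 712 with the 7SK term, 35 with the 7SK term and the GC correction, and 1 to 1806 when each library was left out in turn, the highest without non-targeting replicate 1. DESeq2 called 173 and limma-voom 1. The number of complex I genes called, 0 of 54, became 1 with no filter (NDUFA5), 4 with the 7SK term, 1 with the 7SK term and the GC correction (NDUFA12), and 0 to 4 when each library was left out. With a replicate block, edgeR called 1209 genes (6.14%) and 1 complex I gene (NDUFA5), and with the block and the GC correction 6 genes and no complex I gene. The block also called TFAM, GABPA, LRPPRC, PNPT1, CYC1 and the copy MTND2P2. Libraries with the same number had correlations of their deviations from the group means of 0.23, 0.043 and 0.33. Replicates 1 and 3 of each group correlated best with the library of the same number. Non-targeting replicate 2 correlated best with mCherry-targeting replicate 3 (0.045), and mCherry-targeting replicate 2 with non-targeting replicate 1 (0.12). These values do not settle whether the numbers pair the libraries. Medians of log2 fold change of the 4 main classes and their shares of counts moved by less than the SD between libraries under each alternative run, but some medians changed sign. That of the core subunits was 0.018 with the 7SK term and the GC correction, that of the supernumerary subunits -0.071 and -0.049 without non-targeting replicate 1 and mCherry-targeting replicate 3. That of the mitochondrially encoded members was -0.015 with upper-quartile factors, -0.00090 with the block, -0.11 with the GC correction, -0.078 with both, -0.033 with the 7SK term and -0.037 with that term and the GC correction, and -0.19 and -0.17 without non-targeting and mCherry-targeting replicate 3.

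Among genes named by the stated rules, several log2 fold changes, none of them called with all 6 libraries and group as the only term, changed sign under an alternative. Values with the other sign were 0.025 for NDUFS8, -0.062 for NDUFAF4, -0.0067 for NDUFAF7, -0.14 for NDUFAF5, 0.075 for NDUFAF3, -0.0026 for MT-ND4L, -0.12 for MT-ND3, -0.042 for MT-ND4 and 0.11 for NDUFA4L2 with the GC correction, 0.032 for NDUFS8, -0.050 for NDUFAF4, -0.0060 for NDUFAF7, -0.14 for NDUFAF5, 0.082 for NDUFAF3, -0.23 for MT-ND3, -0.057 for MT-ND4 and 0.12 for NDUFA4L2 with the replicate block and the GC correction, 0.0020 for NDUFB4 and -0.050 for MT-ND3 with the replicate block, 0.13 for NDUFB4, 0.022 for NDUFAF3 and -0.033 for MT-ND1 with the 7SK term, and 0.021 for NDUFS7, 0.018 for NDUFS3, 0.11 for NDUFS8, 0.070 for NDUFB4, -0.00045 for NDUFAF7, -0.14 for NDUFAF5, 0.15 for NDUFAF3, -0.029 for MT-ND4L, -0.027 for MT-ND3, -0.026 for MT-ND4, -0.037 for MT-ND1, 0.081 for NDUFA4L2, 0.037 for COX8A and -0.015 for MT-ATP8 with the 7SK term and the GC correction. They were 0.0094 for NDUFB4 and 0.0022 for MT-ND6 with library sizes alone, -0.00077 for MT-ND4 and -0.015 for MT-ND1 with upper-quartile factors and 0.0018 for NDUFB4, -0.071 for MT-ND3 and 0.0019 for MT-ND6 with limma-voom. Leaving out each library gave ranges of -0.00066 to 0.44 for NDUFV2, -0.16 to 0.12 for NDUFB4, -0.017 to 0.070 for NDUFAF5, -0.34 to 0.13 for MT-ND2, -0.10 to 0.38 for MT-ND4L, -0.30 to 0.17 for MT-ND5, -0.44 to 0.33 for MT-ND3, -0.17 to 0.075 for MT-ND6, -0.21 to 0.23 for MT-ND4, -0.22 to 0.22 for MT-ND1 and -0.15 to 0.014 for NDUFA4L2. With 3 libraries a group and SEs of 0.14 to 0.36 for the mitochondrially encoded members, changes of the size of their fold changes were not detectable.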
